A study of Mus musculus with 6 samples.

Results

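The genes described here are 10 components of BMP and TGF-β signalling, chosen by name from the 52249 genes of the deposited count table: the ligands Bmp4 and Bmp7, the receptors Bmpr1a, Bmpr2, Tgfbr1 and Tgfbr2, the shared signal transducer Smad4, and the target genes Id1, Id2 and Id3. They were measured by sequencing the 3′ ends of mRNA in organoids of mouse intestine, cultures of its epithelium grown in a gel. Every library came from organoids with the genotype Apc-knockout, so both groups are labelled as knockouts of the gene whose product holds WNT signalling in check; 3 libraries had that genotype alone (control), and 3 had the genotype Apc-knockout with IGF2BP3 overexpression (called IGF2BP3 OE below, after their label). IGF2BP3 is an RNA-binding protein that is normally made in fetal tissue and in tumours. The labels do not describe the Apc allele, the overexpression construct, the number of clones or animals, or whether the 3 libraries of a group came from separate cultures, so a p-value here measures only the spread between these libraries, which may be technical. Organoids with an intact Apc gene were not analysed here.

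BMP and TGF-β ligands are secreted dimers. They bring together a type II receptor (Bmpr2 for BMPs, Tgfbr2 for TGF-β) and a type I receptor (Bmpr1a or Tgfbr1), whose kinase then phosphorylates receptor SMADs, and these enter the nucleus with Smad4. In the intestine BMP activity is low at the crypt base, where stem cells divide, and high towards the villus, where cells differentiate; inherited loss of BMPR1A or SMAD4 causes juvenile polyposis in people, and TGFBR2 and SMAD4 are often inactivated in colorectal cancer. The ID proteins are direct BMP targets that lack a DNA-binding region and hold E proteins, their basic helix-loop-helix partners, away from DNA.

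RefSeq promoter sequence was searched for 7 of the 10 members, in 8 windows on build GRCm38.p6 (Tgfbr1 has 2). No window was held for Bmp7 and Id1. Smad4 was not searched, because windows of its chromosome were left out, here and in the shares of all windows below. The 250 bases before each annotated start were searched for GGCGCC, the GC-rich element bound by the BMP-activated SMADs (its own reverse complement), and for CAGAC or its reverse complement GTCTG, which holds the core that Smad3 and Smad4 bind; the motifs can share at most 1 letter, and no matches overlapped here. These short stretches are shown because Id3 and Bmpr1a are the members called below, and Id2 and the remaining receptors are their relatives. Each is written 5′ to 3′ on the gene's strand with the matched letters in capitals.
Id3, chr4:136143645-136143669: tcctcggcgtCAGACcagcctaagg
Id3, chr4:136143744-136143768: acccttggcgGTCTGttttgaataa
Id2, chr12:25096308-25096333: aggccccctgGGCGCCcagcgcacac
Bmpr1a, chr14:34502729-34502754: cgcgcgcgccGGCGCCtcttgctcgc
Bmpr2, chr1:59764164-59764189: ccggcggccgGGCGCCgctgcctgcc
Tgfbr1, chr4:47352979-47353004: ctggagtaaaGGCGCCcagcggtgag
Tgfbr2, chr9:116175509-116175533: acttggagccCAGACttggcggggt
GGCGCC was found in the windows of Id2, Bmpr1a, Bmpr2 and Tgfbr1 and in 9.59% of the 32851 windows searched. CAGAC or GTCTG was found in the windows of Id3 (2 matches), Tgfbr2 and Tgfbr1 (its second window), and in 42.2% of all windows searched. Bmp4 had no match to either motif. The matches of Id3 lay 167 and 68 bases before its RefSeq start, and those of Id2 and Bmpr1a lay 231 and 198 bases before theirs. In GENCODE M21 the stretches of Id3 and Bmpr2 lie in untranslated exon sequence of other transcripts of the same gene, those of Id2 and Bmpr1a lie in an intron, and those of Tgfbr1 and Tgfbr2 printed here lie outside the gene. A match is a run of letters, not a measured binding site.

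Total counts ran from 2180116 to 2228078 in the control and from 2310236 to 2519917 in the IGF2BP3 OE libraries. The biological coefficient of variation was 3.14% among control and 17.2% among IGF2BP3 OE libraries, and the mitochondrial ribosomal RNAs took 8.93% to 9.41% and 3.89% to 4.36% of the counts. The library names put each group in a series of its own, so a difference between the groups and one between those series cannot be told apart. Igf2bp3 had 1, 0 and 0 counts in each group; the labels do not say whether the construct carries the mouse 3′ end, so these counts are no check of the overexpression label. Apc transcripts were counted at 80.4 ± 4.30 CPM in the controls and 62.0 ± 2.37 CPM in the IGF2BP3 OE libraries (SD, n = 3). Apc was called lower (log2 fold change -0.37, edgeR adjusted p = 0.0323), and these counts do not show the mutation. All 8 epithelial markers were counted in every library, summing to 4219 to 4471 CPM in the controls and 5487 to 6203 CPM in the IGF2BP3 OE libraries; 4 of them (Krt8, Krt18, Krt19 and Vil1) were called higher and 1, Cldn7, lower. The 8 stromal markers summed to at most 1.88 CPM and the 5 endothelial markers to at most 1.38 CPM, with Col1a2, Col3a1, Pdgfrb, Dcn, Lum, Cdh5 and Tek at 0 in all 6 libraries. The 7 immune markers summed to 47.9 to 53.0 CPM in the controls and 68.1 to 80.2 CPM in the IGF2BP3 OE libraries, mostly from Csf1r and Cd68. Csf1r was called higher (log2 fold change 0.68, edgeR adjusted p = 0.0061), and Cd68 and Cd74 were not called. Cd3e and Cd79a were at 0 and Ptprc had at most 2 counts. The part of these markers in the results below was not tested.

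Of the 10 members, 9 had enough counts to be tested. Id3 was higher and Bmpr1a lower in the IGF2BP3 OE libraries at an adjusted p below 0.05, and 7 members did not pass. These 2 calls are 22.2% of the members tested, against 29.2% of the 10687 genes tested; 1 was higher, as were 16.5% of all tested genes, and 1 lower, as were 12.7%. Of all calls 56.6% were higher, a share that was 42.4% with an offset for GC content. For 4 members the groups had separate CPM ranges, as did 45.7% of all tested genes: Id3 was higher (25.3% of all genes), and Bmp4, Bmpr1a and Bmpr2 were lower (20.5%). The median log2 fold change was -0.06 over the 9 members and 0.04 over all tested genes. The share called among the members was no higher than among all tested genes, and those called moved in both directions. In bulk RNA, fewer cells of a type and less RNA per cell cannot be told apart. Fold changes are IGF2BP3 OE minus control from edgeR's quasi-likelihood test over all 6 libraries, p-values are adjusted by Benjamini-Hochberg over all tested genes, and levels are TMM-scaled CPM, a count relative to the scaled library total.

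**Figure D1:**
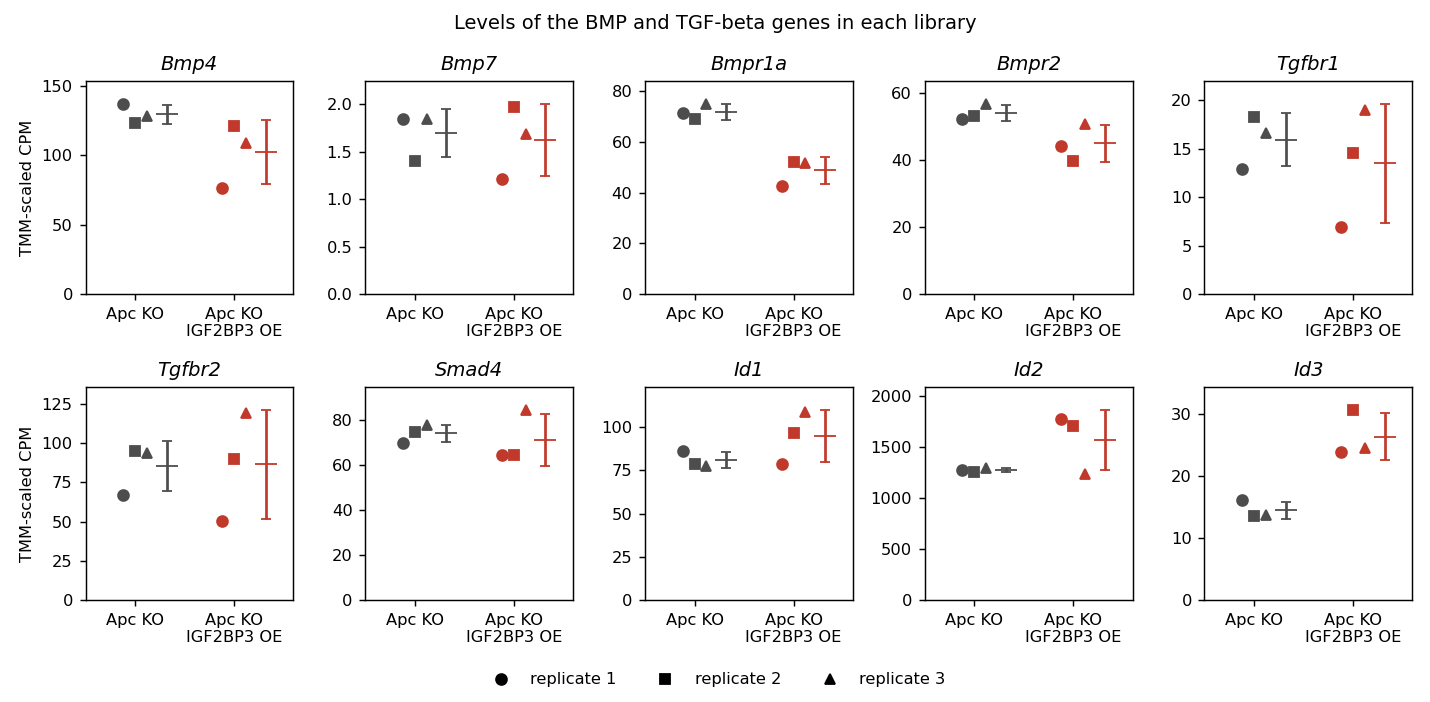
Level of each of the 10 genes in TMM-scaled CPM (vertical axes, starting at 0) in the 3 control and the 3 IGF2BP3 OE libraries; symbols mark the replicate number and bars the mean ± SD. The IGF2BP3 OE libraries of Id3 lie at 23.9 to 30.7 CPM above all control libraries, and those of Bmpr1a at 42.5 to 52.3 CPM below them.

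Among the ligands, Bmp4 was measured and Bmp7 was close to the limit of detection. Bmp4 (ENSMUSG00000021835, minus strand of chromosome 14, 46383520 to 46390669 in GRCm38), a BMP that drives differentiation of epithelial cells leaving the crypt, was at 137, 123 and 128 CPM in control replicates 1, 2 and 3 and at 76.6, 121 and 109 CPM in the IGF2BP3 OE ones. The IGF2BP3 OE libraries were all below the controls, but replicate 2 came close to the lowest control and replicate 1 was far below the others. The log2 fold change was -0.34 (SE 0.15, 95% interval -0.67 to -0.01), which did not pass (edgeR adjusted p = 0.111). It passed with an offset for the GC content of transcripts (-0.55, adjusted p = 0.0186). With that offset and the replicate number as a block it also passed (-0.57, adjusted p = 0.00628). So it did with no count filter (-0.38, adjusted p = 0.0449) and without IGF2BP3 OE replicate 2 (-0.51, adjusted p = 0.0396). Over 18 alternatives the adjusted p ran from 0.00628 to 0.282. Without IGF2BP3 OE replicate 1 the fold change was smaller, at -0.22 (adjusted p = 0.132). Exons of an unnamed gene model, Gm15217, overlap Bmp4 on the opposite strand, and whether the counting used strand is not given in the sources used here. Bmp7 (ENSMUSG00000008999, chromosome 2), a related BMP, had 4, 3 and 4 counts in the controls and 3, 5 and 4 counts in the IGF2BP3 OE libraries. That is 1.22 to 1.97 CPM, near the floor of 3 counts (1.18 to 1.41 CPM), so Bmp7 was not tested on its own and no difference was detectable at this depth. The log2 ratio of Bmp4 to Bmp7 counts within a library was 5.95 to 6.23 in the controls and 5.76 to 5.84 in the IGF2BP3 OE libraries. The groups were separate (difference -0.27, two-sided exact permutation p = 0.1, adjusted 0.15 over 6 ratios), but this ratio rests on the few Bmp7 counts.

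Of the BMP receptors, the type I receptor fell. Bmpr1a (ENSMUSG00000021796, minus strand of chromosome 14, 34410734 to 34503341), the type I receptor through which BMP4 signals in gut epithelium, was at 71.4, 69.0 and 75.1 CPM in the controls and 42.5, 52.3 and 51.6 CPM in the IGF2BP3 OE libraries. All IGF2BP3 OE values lay well below all control values. The means were 71.8 ± 3.09 and 48.8 ± 5.44 CPM (SD, n = 3), and Bmpr1a fell by 0.56 on the log2 scale (SE 0.13, 95% interval -0.84 to -0.27, edgeR adjusted p = 0.00791), or 0.680 times the control level. Transcripts of Bmpr1a are poor in GC (41.3%, against a median of 49.7% over the tested genes), and fold change followed GC across tested genes (Spearman rho 0.37 over 10679 genes, which are not independent replicates). With the GC offset the change was -0.39 (adjusted p = 0.0441), and with the offset and the replicate number as a block it was -0.39 and did not pass (adjusted p = 0.0554, the highest of 18 alternatives, which began at 0.00251). Exons of the gene model Gm17110 overlap Bmpr1a on the opposite strand.

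Bmpr2 (ENSMUSG00000067336, plus strand of chromosome 1, 59763400 to 59879014), the type II receptor that phosphorylates Bmpr1a, was at 52.1, 53.0 and 56.7 CPM in the controls and 44.2, 39.7 and 50.7 CPM in the IGF2BP3 OE libraries. The ranges did not overlap, with IGF2BP3 OE replicate 3 only just below the lowest control. Bmpr2 had a log2 fold change of -0.27 (SE 0.14, 95% interval -0.57 to 0.04, edgeR adjusted p = 0.172), which did not pass. Bmpr2 is another GC-poor transcript (41.0%), and with the GC offset the value was -0.09 (adjusted p = 0.672, in a range from 0.0705 to 0.698). Within each library, the log2 ratio of Bmpr1a to Bmpr2 counts, which no scaling between libraries can alter, was 0.41 ± 0.04 in the controls and 0.12 ± 0.24 in the IGF2BP3 OE libraries (SD, n = 3; difference -0.29, two-sided exact permutation p = 0.2). IGF2BP3 OE replicate 2, at 0.40, lay among the controls, so a larger fall of Bmpr1a than of Bmpr2 was not shown.

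The TGF-β receptors varied widely between libraries and did not pass. Tgfbr2 (ENSMUSG00000032440, minus strand of chromosome 9, 116084293 to 116175360), the type II receptor that binds TGF-β, was at 66.8, 95.2 and 94.0 CPM in the controls and 50.2, 90.1 and 119 CPM in the IGF2BP3 OE libraries. Replicate 1 was the lowest of its group in both groups, and the ranges overlapped from end to end. For Tgfbr2 the log2 fold change was 0.02 (SE 0.24, 95% interval -0.51 to 0.55, edgeR adjusted p = 0.964), and its sign changed in 12 of 18 alternatives. Tgfbr1 (ENSMUSG00000007613, plus strand of chromosome 4, 47353222 to 47414931), the type I partner whose kinase phosphorylates Smad2 and Smad3, was at 12.9, 18.3 and 16.6 CPM in the controls and 6.89, 14.6 and 19.0 CPM in the IGF2BP3 OE libraries, from 17 to 45 counts. IGF2BP3 OE replicate 1 was again the lowest and replicate 3 the highest of all 6 libraries. For Tgfbr1 it was -0.24 (SE 0.31, 95% interval -0.92 to 0.43, edgeR adjusted p = 0.591), and it became 0.02 without IGF2BP3 OE replicate 1 (adjusted p = 0.967) and -0.56 without IGF2BP3 OE replicate 3 (adjusted p = 0.191, the lowest of the range).

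The ratio of the TGF-β receptors was steadier than the level of either. The log2 ratio of Tgfbr1 to Tgfbr2 within a library was -2.35, -2.37 and -2.49 in the controls and -2.83, -2.61 and -2.63 in the IGF2BP3 OE libraries. Every IGF2BP3 OE ratio was below every control ratio, although each gene on its own overlapped between groups. The difference was -0.29 (two-sided exact permutation p = 0.1, the smallest that 3 against 3 libraries can give, and 0.15 after adjustment over 6 ratios), so the design could not bring it past 0.05. Transcripts of Tgfbr1 are poorer in GC than those of Tgfbr2 (41.0% and 49.6%), and a ratio of counts does not remove such a difference. With the GC offset the log2 fold changes of Tgfbr1 and Tgfbr2 were nearly equal, at -0.077 and -0.085. With the offset and the replicate block they were -0.110 and -0.125. The ratio itself was not tested with the offset. Smad4 (ENSMUSG00000024515, minus strand of chromosome 18, 73639009 to 73703780), the SMAD that both branches share, was at 70.1, 74.6 and 77.9 CPM in the controls and 64.4, 64.5 and 84.6 CPM in the IGF2BP3 OE libraries. IGF2BP3 OE replicates 1 and 2 were below all controls and replicate 3 above them. Its log2 fold change was -0.06 (SE 0.14, 95% interval -0.36 to 0.24, edgeR adjusted p = 0.773), an interval that leaves room for a change of either sign, and it was -0.20 without IGF2BP3 OE replicate 3 (adjusted p = 0.239).

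**Figure D2:**
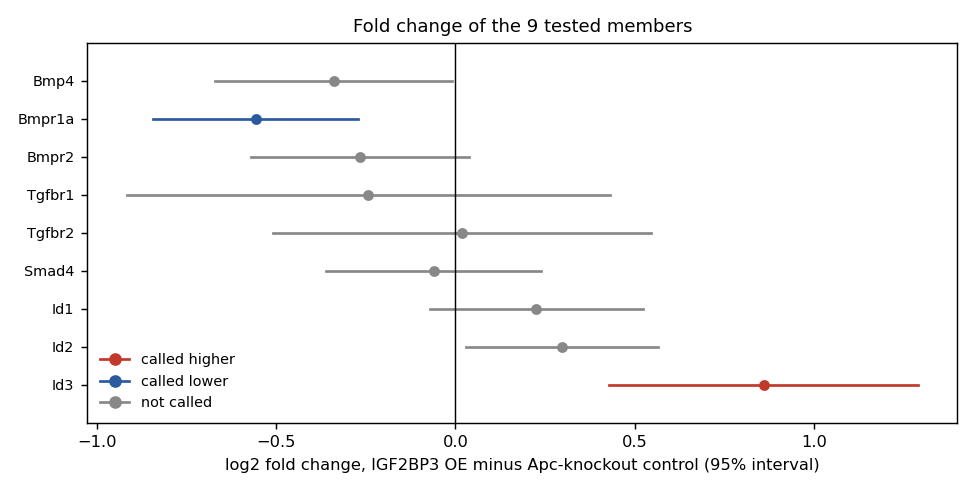
Log2 fold change, IGF2BP3 OE minus control, of the 9 tested members (points) with the 95% interval of the edgeR estimate (lines); colour marks whether the adjusted p was below 0.05. Bmpr1a lies below 0 (-0.84 to -0.27) and Id3 above it (0.43 to 1.29), while the intervals of Tgfbr1 and Tgfbr2 are the widest.

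The ID genes, the BMP targets among the members, differed in how clearly they moved. BMP activity itself was not measured. Id3 (ENSMUSG00000007872, plus strand of chromosome 4, 136143497 to 136145755) was at 16.1, 13.6 and 13.8 CPM in the controls and 23.9, 30.7 and 24.5 CPM in the IGF2BP3 OE libraries. All IGF2BP3 OE libraries were above all controls. The means were 14.5 ± 1.40 and 26.4 ± 3.74 CPM (SD, n = 3), and Id3 rose by 0.86 on the log2 scale (SE 0.20, 95% interval 0.43 to 1.29, edgeR adjusted p = 0.00695), or 1.81-fold. These levels rested on 29 to 35 counts per control and 58 to 78 counts per IGF2BP3 OE library. Id3 transcripts are rich in GC (55.6%); with the GC offset the change was 0.57 and no longer passed (adjusted p = 0.0551), and with the offset and the replicate block it was 0.56 (adjusted p = 0.0641, in a range from 0.00357).

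Id2 (ENSMUSG00000020644, minus strand of chromosome 12, 25093799 to 25097140) was at 1270, 1257 and 1297 CPM in the controls and 1769, 1699 and 1231 CPM in the IGF2BP3 OE libraries. IGF2BP3 OE replicates 1 and 2 were well above the controls, and replicate 3 was just below them. The log2 fold change was 0.30 (SE 0.12, 95% interval 0.03 to 0.57) and did not pass (edgeR adjusted p = 0.0895). Without IGF2BP3 OE replicate 3 the change was 0.45 and passed (adjusted p = 0.000752), whereas without IGF2BP3 OE replicate 1 it was 0.15 (adjusted p = 0.281) and did not. With all 6 libraries it passed with library totals in place of TMM (0.34, adjusted p = 0.0462), with a variance per group in limma-voom (0.28, adjusted p = 0.0438) and with the replicate block and GC offset (0.36, adjusted p = 0.0496), in a range up to 0.331.

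Id1 (ENSMUSG00000042745, plus strand of chromosome 2, 152736251 to 152737410) was at 86.2, 78.8 and 77.4 CPM in the controls and 78.6, 96.3 and 109 CPM in the IGF2BP3 OE libraries. IGF2BP3 OE replicate 1 lay among the controls, and replicates 2 and 3 were above them. Id1 had a log2 fold change of 0.23 (SE 0.14, 95% interval -0.07 to 0.52, edgeR adjusted p = 0.235). Its sign turned with the GC offset (-0.05, adjusted p = 0.837, in a range from 0.0721), Id1 being another GC-rich transcript (54.7%).

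Ratios within a library set the ID genes against each other. The log2 ratio of Id1 to Id3 was 2.40, 2.51 and 2.47 in the controls and 1.71, 1.65 and 2.14 in the IGF2BP3 OE libraries, so Id3 gained on Id1 in all 3. The difference was -0.63 (two-sided exact permutation p = 0.1, the smallest possible, adjusted 0.15). The log2 ratio of Id3 to Id2 was -6.28, -6.51 and -6.53 in the controls and -6.20, -5.78 and -5.64 in the IGF2BP3 OE libraries, a difference of 0.57 (two-sided exact permutation p = 0.1, adjusted 0.15). Id3 gained on Id2 as well, by little in IGF2BP3 OE replicate 1. Transcripts of Id3 are richer in GC than those of Id2 (55.6% and 45.15%). With the GC offset the log2 fold changes of Id3 and Id2 lay closer together, at 0.57 and 0.38, against 0.86 and 0.30 without it. Id1 is near Id3 in GC (54.7%) and was at -0.05 with the offset. The ratios themselves were not tested with the offset. The ratio of Id1 to Id2 did not separate the groups (difference -0.06, two-sided exact permutation p = 0.8), and the IGF2BP3 OE libraries were far apart in it, from -4.49 in replicate 1 to -3.50 in replicate 3.

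The IGF2BP3 OE libraries differed among themselves in ID expression. Replicate 1 had the highest Id2 and the lowest Id1 and Id3 of its group, replicate 2 had the highest Id3, and replicate 3 had the highest Id1 and the lowest Id2. The genes whose levels over the 6 libraries were most like each ID gene are named here. For Id3 these were the gene model Gm27029, Ppdpf and Ttll12 (Pearson r 0.997, 0.997 and 0.994). For Id2 they were Eif2s2, Eif4a3 and Zdhhc3 (r 0.997, 0.991 and 0.991), and for Id1 they were 1700123O20Rik, Tspan31 and Trim11 (r 0.992, 0.985 and 0.984). These are the closest among tested genes whose average log2 CPM was 3 or more, over 6 libraries that fall into 2 groups, and are a description only.

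**Figure D3:**
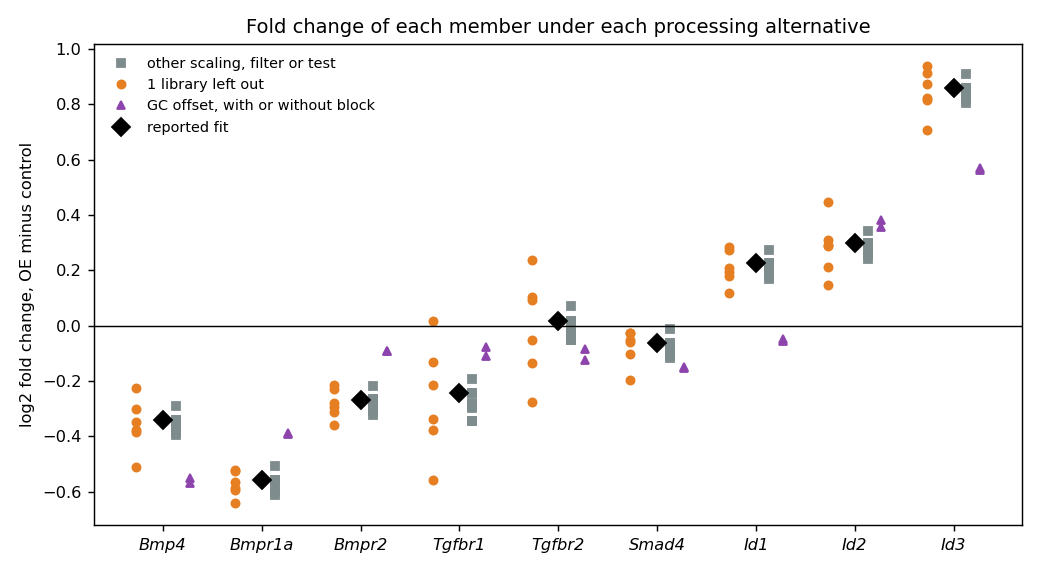
Log2 fold change of each tested member (vertical axis) in the reported fit and in each alternative, with fits that left out 1 library, fits with an offset for GC content and other alternatives marked apart. Id3 stays between 0.56 and 0.94 and Bmpr1a between -0.64 and -0.39, while Tgfbr2 lies on both sides of 0 and Id1 falls to -0.06 with the GC offset and block.

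The E proteins that ID proteins bind did not pass. Tcf3, Tcf4 and Tcf12 had log2 fold changes of 0.14, 0.01 and -0.16 (SE 0.15, 0.11 and 0.14; edgeR adjusted p = 0.488, 0.975 and 0.407). None of the 3 had groups without overlap.

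The members were then read beside 84 other genes of the pathway, of which 55 had enough counts. Of these, 8 were higher and 11 lower (34.5%, against 29.2% of all tested genes), and their median log2 fold change was -0.02. Without control replicate 1, 2 or 3 the 19 calls became 12, 10 and 8 (17.3%, 16.8% and 15.9% of all genes were then called), and DESeq2 made 11 (19.6% of all genes). With the GC offset 3 were higher and 10 lower (22.8% of all genes were called). The other 7 tested receptors and co-receptors, among them Acvr1, Acvr1b, Acvr2a and Acvr2b, gave 0 calls in either direction with edgeR, DESeq2 and limma-voom, and 0 had an unadjusted edgeR p below 0.05. Acvr1, another BMP type I receptor, had 52, 47 and 51 counts in the controls and 13, 69 and 46 in the IGF2BP3 OE libraries, with replicate 1 the lowest as for Tgfbr1, Tgfbr2 and Bmp4.

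Of the 6 other SMADs tested, 2 rose and 1 fell (50.0% called, against 29.2% of all tested genes). Smad3, which carries TGF-β signals with Smad4, was at 83.9, 77.9 and 90.3 CPM in the controls and 169, 144 and 139 CPM in the IGF2BP3 OE libraries. Smad5, which carries BMP signals from Bmpr1a, was at 57.2, 56.8 and 64.0 CPM in the controls and 89.5, 80.2 and 107 CPM in the IGF2BP3 OE libraries. Smad7, the inhibitory SMAD that TGF-β signals induce and that blocks type I receptors, was at 33.6, 33.8 and 24.9 CPM in the controls and 14.6, 11.8 and 13.5 CPM in the IGF2BP3 OE libraries. None of the 3 had overlapping groups. Smad3 rose by 0.84 (SE 0.12, edgeR adjusted p = 0.000514), Smad5 rose by 0.64 (SE 0.14, adjusted p = 0.00488) and Smad7 fell by 1.21 (SE 0.20, adjusted p = 0.00112) on the log2 scale, and all 3 passed in each of 18 alternatives. Smad1, Smad2 and Smad6 had log2 fold changes of -0.02, -0.05 and 0.28 and did not pass (edgeR adjusted p = 0.939, 0.889 and 0.564), and Smad9 was at 0 in all libraries. An exon of a small gene model, Gm27301, overlaps Smad5 on its own strand, so counts of Smad5 can include its reads.

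Of the 8 other ligands tested, 1 rose and 2 fell (37.5%, against 29.2% of all tested genes). Gdf15, a distant and stress-induced member of the TGF-β family, fell from 200 ± 10.2 to 85.3 ± 13.9 CPM (SD, n = 3; log2 fold change -1.22, SE 0.13, edgeR adjusted p = 9.28e-05). Tgfb2, a ligand of Tgfbr1 and Tgfbr2, fell from 91.5 ± 3.43 to 66.9 ± 5.38 CPM (-0.45, SE 0.12, adjusted p = 0.0142), a call lost without control replicate 2 (-0.42, adjusted p = 0.073) or 3 (-0.46, adjusted p = 0.0569; range from 0.00208). Bmp8b rose from 35.4 ± 2.64 to 55.7 ± 2.98 CPM (0.66, SE 0.14, adjusted p = 0.0041); the change was 0.42 with the GC offset (adjusted p = 0.0469) and the call was lost with the offset and the replicate block (0.42, adjusted p = 0.0545; range from 0.00251). Bmp8b has a related gene, Bmp8a, and whether reads of both were kept apart was not tested. Exons of Ppie overlap Bmp8b on the opposite strand, so its value is uncertain. Bmp2, a close relative of Bmp4, did not pass (-0.45, SE 0.25, edgeR adjusted p = 0.194).

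Of 19 listed secreted or membrane-bound regulators 11 were tested, and 2 rose and 2 fell (36.4%, against 29.2% of all tested genes). Nbl1, a BMP antagonist, and Bmp1, a protease that frees BMPs from chordin, rose by 0.58 and 0.79 on the log2 scale (SE 0.16 and 0.23, edgeR adjusted p = 0.0169 and 0.0214), each a call lost in 7 of 18 alternatives, the GC offset among them (0.21 and 0.49, adjusted p = 0.355 and 0.143; highest 0.406 and 0.177, lowest 0.0102 and 0.0158). Crim1, a membrane protein that binds BMPs, fell by 0.48 log2 units (SE 0.11, edgeR adjusted p = 0.00572) and passed in all 18; exons of Fez2 overlap it on the opposite strand. Fst, the activin and BMP antagonist follistatin, had 10, 10 and 20 counts in the controls and 0, 4 and 6 in the IGF2BP3 OE libraries (log2 fold change -2.14, SE 0.60, edgeR adjusted p = 0.0189), and the call was lost without control replicate 3 (-1.74, adjusted p = 0.115) or IGF2BP3 OE replicate 2 (-2.29, adjusted p = 0.0557; range from 0.000271). Gene models on the opposite strand overlap exons of Fst and of Tgfb2. The stromal BMP antagonists Nog and Grem1 were at 0 in all 6 libraries.

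Of the 19 intracellular regulators tested, 3 were higher and 4 lower (36.8%, against 29.2% of all tested genes). Skil, which encodes the SMAD repressor SnoN, fell from 61.5 ± 6.43 to 37.8 ± 6.83 CPM (SD, n = 3; log2 fold change -0.70, SE 0.16, edgeR adjusted p = 0.00656) and passed in all 18 alternatives. The deubiquitinase Usp15 and the ubiquitin ligase Wwp1 fell by 0.60 and 0.50 (SE 0.15 and 0.16, edgeR adjusted p = 0.0103 and 0.0325), calls lost in 2 and 8 alternatives, and exons of unnamed gene models overlap both on the opposite strand; an exon of Gm27920 overlaps Usp15, and one of Mir140 overlaps Wwp2, on the same strand. Tab1, Fkbp1a and Wwp2 rose by 0.64, 0.38 and 0.47 (SE 0.20, 0.13 and 0.16, edgeR adjusted p = 0.0287, 0.045 and 0.0477), calls lost in 9, 11 and 15 of 18 alternatives. Pmepa1, a TGF-β target that restrains the pathway, was at 436 ± 2.85 CPM in the controls and 433 ± 25.7 CPM in the IGF2BP3 OE libraries (SD, n = 3; log2 fold change -0.01, 95% interval -0.22 to 0.20).

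Of the 4 target genes tested other than the ID genes, 2 were lower and 0 higher with edgeR, against 12.7% and 16.5% of all tested genes, and 0 were higher at an unadjusted edgeR p below 0.05, with DESeq2 or with limma-voom. Cdkn1a, the cell-cycle inhibitor p21, which TGF-β and p53 both induce, fell from 1139 ± 44.8 to 566 ± 137 CPM (SD, n = 3; log2 fold change -1.01, SE 0.15, edgeR adjusted p = 0.000584) and passed in all 18 alternatives. Ccn2, induced by TGF-β and by YAP, was at 649, 726 and 652 CPM in the controls and 23.1, 297 and 287 CPM in the IGF2BP3 OE libraries. All IGF2BP3 OE libraries were low and replicate 1 was far below the others. For Ccn2 the fitted difference was -1.74 log2 units (SE 0.53, adjusted p by edgeR's test = 0.0266); without IGF2BP3 OE replicate 1 it was -1.26 (adjusted p = 6.03e-09), and DESeq2 did not call it (-1.79, adjusted p = 0.163, the highest of 18 alternatives, which began at 2.01e-41). The call was also lost without control replicate 1, 2 or 3 (-1.77, -1.69 and -1.76; adjusted p = 0.0753, 0.085 and 0.0766). Exons of unnamed gene models overlap Cdkn1a and Ccn2 on the opposite strand. Cdkn2b did not pass (-0.15, SE 0.17, edgeR adjusted p = 0.539), and neither did Atoh8, a BMP target like the ID genes (-0.77, SE 0.37, adjusted p = 0.136).

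**Figure D4:**
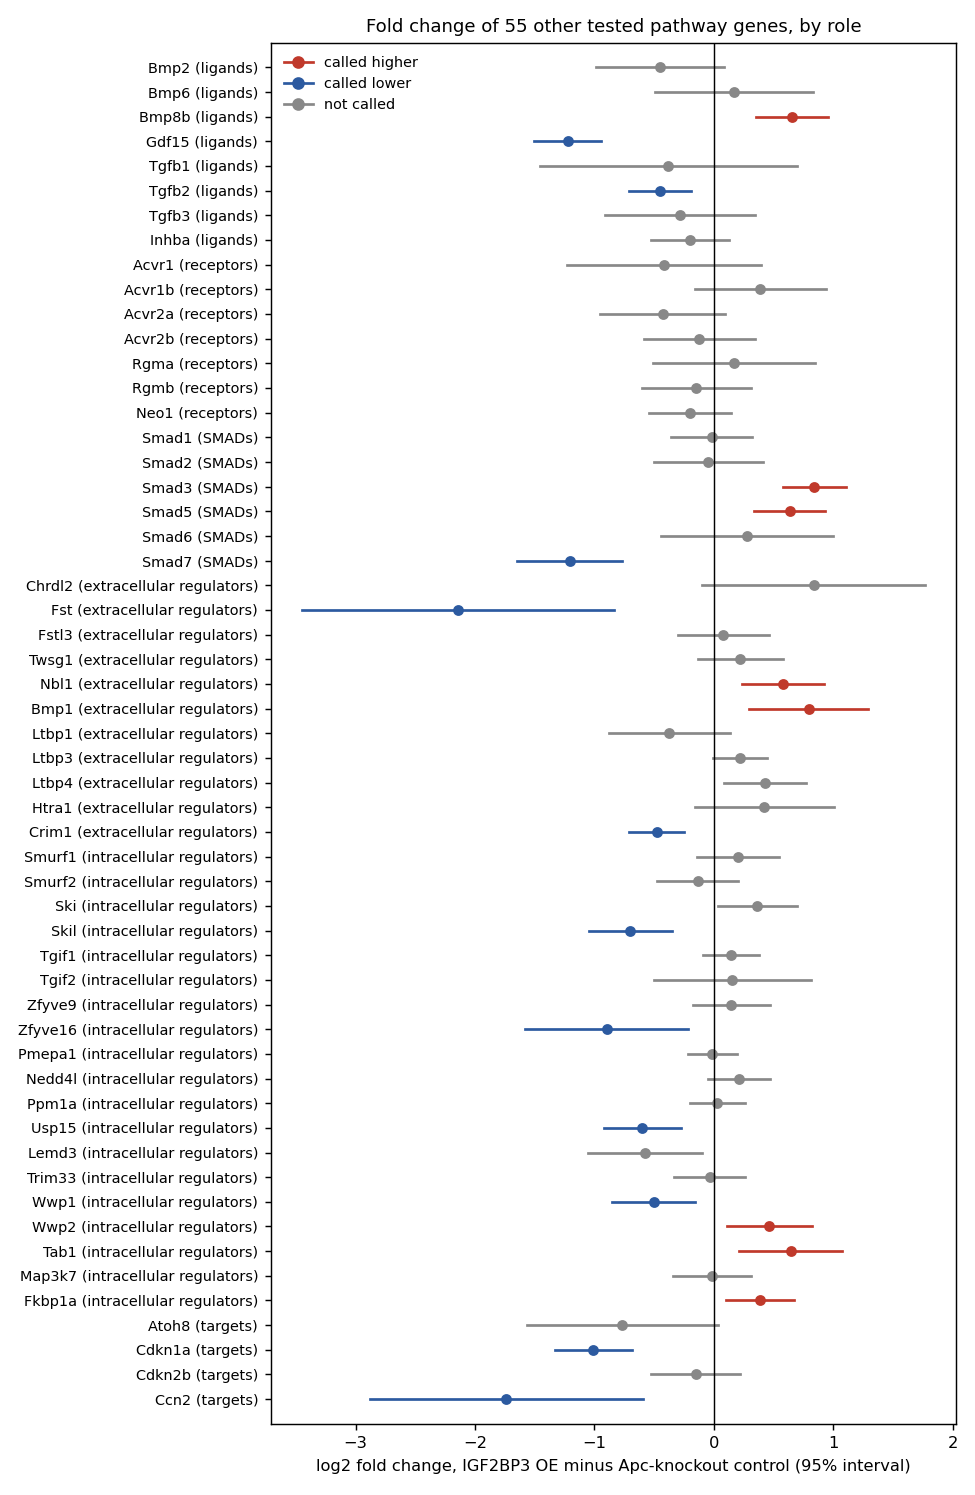
Log2 fold change, IGF2BP3 OE minus control, of the 55 tested pathway genes other than the members, ordered by role (points, with 95% intervals of the edgeR estimate as lines); colour marks the 8 genes called higher and the 11 called lower. Smad3 and Smad5 lie above 0 and Smad7, Gdf15 and Cdkn1a below it, and none of these receptors is called.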

How the data were processed

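Per the labels' protocols, libraries were made from total RNA with a QuantSeq 3′ kit of the forward type, so a count comes from near the polyadenylated end and does not scale with transcript length. STAR, HTSeq and the builds mm10 and GRCm38 are named in the submitters' processing notes; strand, multi-mapping reads and molecular identifiers are not given in the sources used here. The authors deposited unnormalized estimated counts for 52249 genes, of which 3.09% of the values above 0 were fractional; they were rounded before testing, whereas whole counts had been foreseen. All 6 columns of values were matched to samples by library name, and groups came from sample titles.

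edgeR 4.0.16 (R 4.3.3) was run on all genes kept by filterByExpr, with TMM scaling, no covariates and Benjamini-Hochberg adjustment. A standard error is the fold change over the root of its F statistic. Ratios within a library used counts plus 0.5 and a two-sided exact permutation test. Alternatives were DESeq2 1.42.0 (test or size factors), limma-voom (limma 3.58.1), library totals, other filters, unrounded counts, no mitochondrial genes, a replicate block, a loess GC offset (span 0.5), both together, each library left out, and, added after the data were seen, limma-voom with a variance per group. Positions and GC content came from GENCODE M21 (GRCm38), which held 99.5% of the identifiers, and promoters from RefSeq (GRCm38.p6). On simulated counts of 10518 genes with 200 changed by 1 log2 unit, edgeR recovered 83.5% of them. The simulation gave both groups the same spread, whereas the real coefficients of variation were 3.14% (control) and 17.2% (IGF2BP3 OE). That share is therefore not the rate of recovery in the real comparison. Intervals and floors cover counting error and library spread only. The members, lists and tests were chosen with earlier results of these data known. Named are all members, up to 3 called genes per list and direction, and the 3 genes most like each ID gene; any others were picked with values in view. A few genes of the pathway are not reported here.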

Additional observations from a re-analysis of the deposited data

How the results depend on the processing

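The equal replicate numbers were not taken as pairs: deviations from the group means correlated at 0.098, 0.018 and 0.07 for replicates 1, 2 and 3 (mean -0.031 for unequal numbers), although 5 of 6 libraries correlated best with their own number. With the replicate block 3112 genes were called (3118 without it, 2958 shared), with Bmpr1a at -0.56 (adjusted p = 0.0102) and Id3 at 0.85 (adjusted p = 0.0105), and it changed no member's call; of the other named genes it ended that of Wwp2 (0.46, adjusted p = 0.0595). Over 18 alternatives the number of members called was 2 or 3, but they were not always the same genes. Bmpr1a and Id3 were both among them except with a GC offset. The GC offset called Bmp4 and Bmpr1a. The replicate block with GC offset called Bmp4 and Id2, and neither Bmpr1a nor Id3. Members called higher numbered 0 with the GC offset and 2 with library totals or a variance per group, and members called lower numbered 2 with the GC offset or no count filter; leaving out 1 library gave 1 to 2 in each direction. Genes called higher numbered 1059 with DESeq2, 1034 with the GC offset and 1076 with the block and GC offset. They make up 56.6% of calls with TMM, 63.8% with library totals and 49.9% with size factors of DESeq2. Leaving out 1 library gave 1748 to 3532 genes, 1033 to 1959 higher and 715 to 1731 lower. Pathway genes called numbered 11 with DESeq2 and 8 to 15 with 1 library left out; those higher numbered 3 with DESeq2, 3 with the GC offset, 2 with the block and GC offset and 3 to 6 with 1 library left out, and those lower 5 to 10. The sign of Tgfbr2 turned with DESeq2 size factors and the DESeq2 test (-0.031 each), limma-voom (-0.052, or -0.053 with a variance per group), no count filter (-0.024), no mitochondrial genes (-0.038), the replicate block (-0.028), the GC offset (-0.085) and both (-0.125), and ran from -0.28 to 0.24 with 1 library left out. Id1 turned with the GC offset (-0.048) and with the block and GC offset (-0.057), and Tgfbr1 (0.016) and the ratio of Id1 to Id2 (0.16) turned without IGF2BP3 OE replicate 1. The ratio of Id1 to Id2 ran from -0.34 to 0.16 and that of Tgfbr1 to Tgfbr2 from -0.33 to -0.22 with 1 library left out. The cause of these shifts was not tested. Of 162 values of members, 136 kept direction and call, and of 324 values of other named pathway genes, 256 did. Bmp7, Fst and Tgfbr1 rested on few counts.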

Other observations

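Of the 84 other pathway genes, 29 had too few counts to be tested, and 9 of them were at 0 in all 6 libraries. Lefty1, an inhibitor of Nodal signalling, had 7, 7 and 8 counts in the controls and 3, 3 and 1 counts in the IGF2BP3 OE libraries. Gdf11, a ligand of the activin branch, had 1, 1 and 1 counts in the controls and 10, 4 and 0 counts in the IGF2BP3 OE libraries, so that IGF2BP3 OE replicate 1 held most of its counts. Inha, an inhibin subunit, had 17, 5 and 5 counts in the controls and 4, 5 and 7 counts in the IGF2BP3 OE libraries. They were picked with their values in view, and no test was made.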
